A study of Homo sapiens with 18 samples.

Results

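Head-to-head gene pairs are neighbouring genes that are transcribed away from each other from a shared stretch of promoter DNA. Here a pair was taken as 2 protein-coding genes on opposite strands, with the minus-strand gene upstream of the plus-strand gene, start sites (TSSs) no more than 1000 bp apart and gene bodies that did not overlap, by the GENCODE annotation on hg19. By this rule 883 pairs were found. Where pairs shared a gene, 1 per locus was kept, which left 821 pairs for counting. Each pair was examined in a window that ran from 2 kb beyond one TSS to 2 kb beyond the other. The reference was the 13463 single-gene promoters, with no other protein-coding TSS within 10 kb, and the background was all 20098 protein-coding promoters, each taken as the TSS with 2 kb on each side. A further class of 1369 pairs, in which a coding gene faced a lncRNA gene, was set beside them.

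The DNA-RNA hybrids were mapped by DRIP-seq, in which genomic DNA is cut by restriction enzymes (5 enzymes here, Bsr GI, Ssp I, Xba I, Hind III and Eco RI) and hybrids are pulled down with the S9.6 antibody. The cells were HCT116, an established human colon carcinoma line. They were left untreated (NT) or exposed to 10 μM camptothecin (CPT), for either 5 or 60 min, and each of the 3 treatments had 2 biological replicates. CPT is a poison that traps topoisomerase I on DNA as cleavage complexes (Top1ccs). The study produced 6 DRIP, 6 RNase H-digested and 6 input samples, and the 12 peak lists of DRIP and RNase H samples were examined here. RNase H removes the RNA strand of a hybrid, so a peak in an RNase H library marks signal that the digestion did not remove. The lists hold peaks and no reads, so the depth behind each is unknown and the number of peaks stands in for it: 30314 to 72879 peaks per DRIP list and 473 to 67188 per RNase H list. Replicate 2 held more peaks than replicate 1 in every treatment and in both kinds of library. The RNase H lists of replicate 2 stood apart, with 50353 peaks at 5 min and 67188 at 60 min of CPT, against 3439 and 5392 in replicate 1, and the main counts that rest on replicate 2 are also given without the DRIP peaks that met an RNase H peak.

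Divergent promoters of this type are typically CpG islands, and housekeeping, DNA repair and metabolic genes are frequent among them. RNA polymerases leave such a promoter in opposite directions, so the DNA between the TSSs lies behind both and is underwound from each side. Topoisomerase I relaxes this torsion. R loops, in which the nascent RNA pairs again with its template and leaves the other DNA strand single, are known to form just inside CpG island promoters, mostly where the strand made as RNA is rich in G.

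The TSSs of the pairs lay 1 to 995 bp apart, with a median of 128 bp (quartiles 69 and 240 bp). The DNA between the TSSs is printed for pairs that recur in the results, on the plus strand of GRCh37 (the build also named hg19), in lower case with motif matches on either strand in capitals. Well-known pairs come first, because their spacers show how unlike these short promoters are. SARS2/MRPS12 encodes the mitochondrial seryl-tRNA synthetase and a protein of the small mitochondrial ribosomal subunit, and its spacer holds 4 CCAAT boxes and 1 GC box. MRPL47/NDUFB5, a mitochondrial ribosomal protein and a subunit of respiratory complex I, has 40 bp with a single match to the ETS core. POLR3K/SNRNP25, for subunits of RNA polymerase III and of the minor spliceosome, holds 3 CCAAT boxes and 4 GC boxes.
SARS2/MRPS12, chr19:39421404-39421583: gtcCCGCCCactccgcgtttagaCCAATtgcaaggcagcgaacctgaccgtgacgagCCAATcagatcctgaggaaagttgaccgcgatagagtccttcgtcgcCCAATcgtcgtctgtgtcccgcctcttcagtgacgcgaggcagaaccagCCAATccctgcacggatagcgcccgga
MRPL47/NDUFB5, chr3:179322438-179322477: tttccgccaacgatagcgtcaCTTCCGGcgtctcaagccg
POLR3K/SNRNP25, chr16:103609-103827: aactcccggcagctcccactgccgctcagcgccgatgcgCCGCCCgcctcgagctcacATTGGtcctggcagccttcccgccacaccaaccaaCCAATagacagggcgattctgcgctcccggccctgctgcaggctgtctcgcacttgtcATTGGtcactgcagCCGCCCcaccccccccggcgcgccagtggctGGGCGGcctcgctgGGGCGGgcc

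The next set belongs to pairs named for their peaks. C11orf68/DRAP1, whose second gene encodes a transcriptional corepressor, was under a peak in all 6 DRIP lists and holds 8 GC boxes, of which the last pair overlap. RSRC2/KNTC1 and the histone pair H2BC11/H2AC11 were absent from the NT lists and present at both CPT times. UIMC1/ZNF346 was present at 60 min only, and ZDHHC19/SLC51A and BST2/MVB12A were lost. Of the spacers printed, the histone one holds TATA boxes, 3 matches of which 2 overlap, together with 4 CCAAT boxes and no GC box.
C11orf68/DRAP1, chr11:65686534-65686744: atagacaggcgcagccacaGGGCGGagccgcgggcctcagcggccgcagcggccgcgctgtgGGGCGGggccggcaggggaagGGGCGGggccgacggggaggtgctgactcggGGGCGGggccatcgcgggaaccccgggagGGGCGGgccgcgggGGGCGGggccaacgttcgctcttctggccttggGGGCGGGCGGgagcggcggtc
RSRC2/KNTC1, chr12:123011548-123011792: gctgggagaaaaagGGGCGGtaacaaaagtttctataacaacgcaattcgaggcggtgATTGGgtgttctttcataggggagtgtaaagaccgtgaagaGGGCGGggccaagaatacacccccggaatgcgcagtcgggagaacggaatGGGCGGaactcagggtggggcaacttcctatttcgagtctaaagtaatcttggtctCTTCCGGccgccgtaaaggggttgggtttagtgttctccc
H2BC11/H2AC11, chr6:27100575-27100821: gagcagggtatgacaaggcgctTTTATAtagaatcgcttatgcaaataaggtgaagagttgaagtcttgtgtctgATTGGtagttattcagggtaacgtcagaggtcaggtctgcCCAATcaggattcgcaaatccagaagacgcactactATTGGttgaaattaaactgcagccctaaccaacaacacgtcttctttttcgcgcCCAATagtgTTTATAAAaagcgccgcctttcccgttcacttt
UIMC1/ZNF346, chr5:176449635-176449696: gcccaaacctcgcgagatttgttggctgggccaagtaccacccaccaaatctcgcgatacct
ZDHHC19/SLC51A, chr3:195938309-195938357: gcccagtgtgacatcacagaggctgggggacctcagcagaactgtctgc
BST2/MVB12A, chr19:17516440-17516530: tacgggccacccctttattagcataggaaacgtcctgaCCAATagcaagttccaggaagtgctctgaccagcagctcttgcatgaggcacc

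The motifs searched were CCAAT (the CCAAT box, bound by NF-Y), GGGCGG (the GC box, bound by Sp1), CCGGAAG (an ETS core), TATAAA (the TATA box), GCATGCGC (an NRF1 core) and AAGATGGCG (a YY1 core). Each was counted once per 300 bp window on either strand, centred on the midpoint of a pair, or from 250 bp upstream to 50 bp downstream of a single TSS. The ETS core stood in 27.4% of the pairs, 9.44% of the single-gene promoters and 11.8% of all protein-coding promoters. The NRF1 core stood in 8.65% of the pairs and 3.74% of all promoters, and the YY1 core in 3.90% and 1.87%. GC boxes were found in 71.6% of the pairs against 52.2% of all promoters. The TATA box went the other way, with 5.12% against 10.9%, and CCAAT stood in 40.2% against 35.8%. Among the pairs, 34.4% of those with a peak in all 6 DRIP lists and 20.2% of those with no peak held the ETS core, and 78.8% and 65.8% held a GC box. The YY1 core stood in 5% and 1.75%, CCAAT in 37.5% and 38.6%, the NRF1 core in 7.5% and 7.89% and the TATA box in 5% and 7.89%. These are counts of letters in the reference sequence and not measured binding.

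Pairs carried DRIP peaks more often than single-gene promoters in every library. In NT cells 31.3% of the pairs in replicate 1 and 47.9% in replicate 2 met a peak, against 15.6% and 29.5% of the single-gene promoters. After 5 min of CPT the pairs stood at 38.4% and 67.4%, and the single-gene promoters at 17.1% and 32.8%. After 60 min they stood at 57.7% and 82.3%, against 26.0% and 42.9%. The Wilson 95% intervals of the pairs ran from 28.2–34.6% in NT replicate 1 to 79.6–84.8% in 60-min replicate 2, and cover only the counting of promoters. Within each treatment the replicates lay further apart than these intervals, so the library and not the number of pairs limits the precision.

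**Figure D1:**
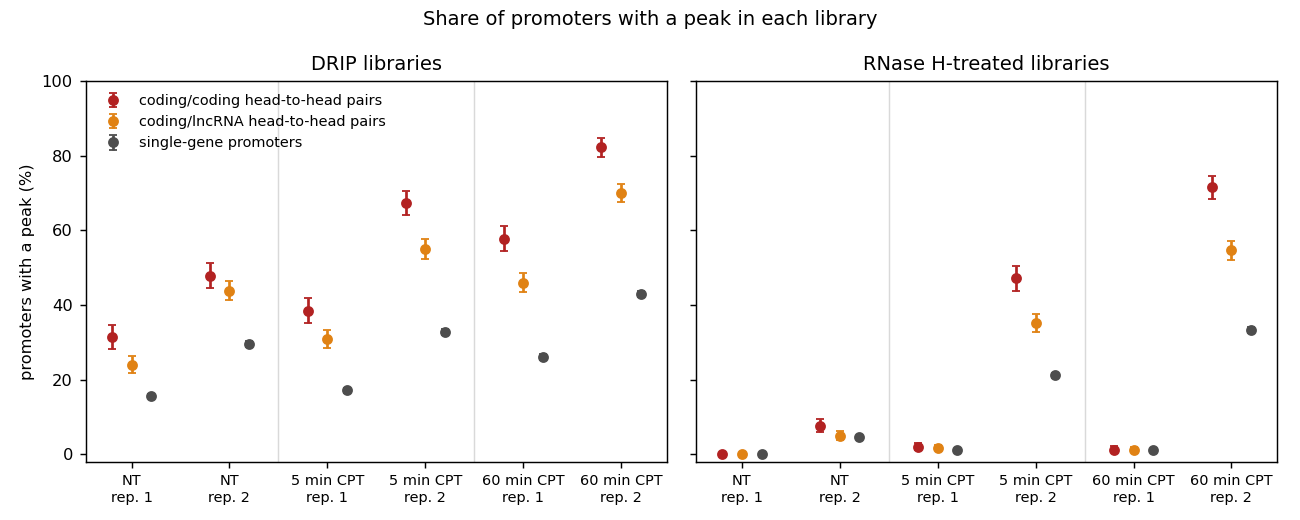
Share of promoters with at least 1 peak (vertical axis, percent) in each of the 6 DRIP libraries (left) and 6 RNase H libraries (right); points are libraries and bars are Wilson 95% intervals over promoters. Coding pairs lie above single-gene promoters in 6 of 6 DRIP libraries, from 31.3% against 15.6% in NT replicate 1 to 82.3% against 42.9% in 60-min replicate 2.

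The difference was 26.8 percentage points on average (SD 9.68, n = 6 libraries, range 15.7 to 39.4), and it was above 0 in 6 of 6 libraries. A two-sided exact permutation test that flipped the signs of the 6 differences gave p = 0.03125, the smallest value that 6 libraries allow, and 0.0417 after Benjamini-Hochberg adjustment over 4 such tests. Peaks covered 11.9% and 22.8% of the pair windows in NT, 11.6% and 29.8% at 5 min, and 19.8% and 45.1% at 60 min. This covered share exceeded that of single-gene windows by 13.3 points (SD 7.11, n = 6, range 6.68 to 25.4, exact permutation p = 0.03125, adjusted p = 0.0417). The strongest peak of a pair ranked at a median percentile of 73.7 to 88.7 by fold enrichment within its list, and that of a single-gene promoter at 66.2 to 82.2. The coding/lncRNA pairs lay between the 2 classes, at 24.0% and 43.8% in NT, 30.9% and 55% at 5 min, and 46.0% and 70.1% at 60 min.

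Pairs differed from single-gene promoters in base composition and in the restriction fragment they lay on, and both moved with the peaks. The median GC content within 500 bp was 61.5% in pairs and 58.6% in single-gene promoters, and the CpG observed/expected ratio was 0.773 and 0.670. CpG-rich promoters, with at least 55% GC and a ratio of at least 0.6, made up 78.6% of the pairs and 50.2% of the single-gene promoters. The fragment that carried the TSS (the longer of the 2 where a pair lay on 2 fragments) had a median of 1992 bp in pairs and 1828 bp in single-gene promoters. Against the 6753 CpG-rich single-gene promoters alone, the difference of all pairs fell to 14.0 points and stayed above 0 in the same test (exact permutation p = 0.03125). With both classes CpG-rich, 645 pairs exceeded single-gene promoters by 11.8 to 25.2 points, in 6 of 6 libraries. Outside that class, 176 pairs exceeded them by 6.92 to 43.1 points, again in 6 of 6.

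Fragment length moved with the peaks in both classes. On fragments of 1 to 1000 bp, 16.0 to 68.1% of 94 pairs had a DRIP peak over the 6 libraries, and on fragments above 6000 bp 80.0 to 96.0% of 25 pairs did. Single-gene promoters went from 5.54–22.2% to 47.9–91.0% over the same lengths. Within each of the 4 length classes pairs were higher in 6 of 6 libraries, by 10.4 to 45.9 points on the shortest fragments, 11.5 to 37.4 points at 1001 to 3000 bp, 19.9 to 36.4 points at 3001 to 6000 bp and 4.99 to 32.1 points on the longest. How much of the whole difference comes from composition and fragment length together was not tested.

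**Figure D2:**
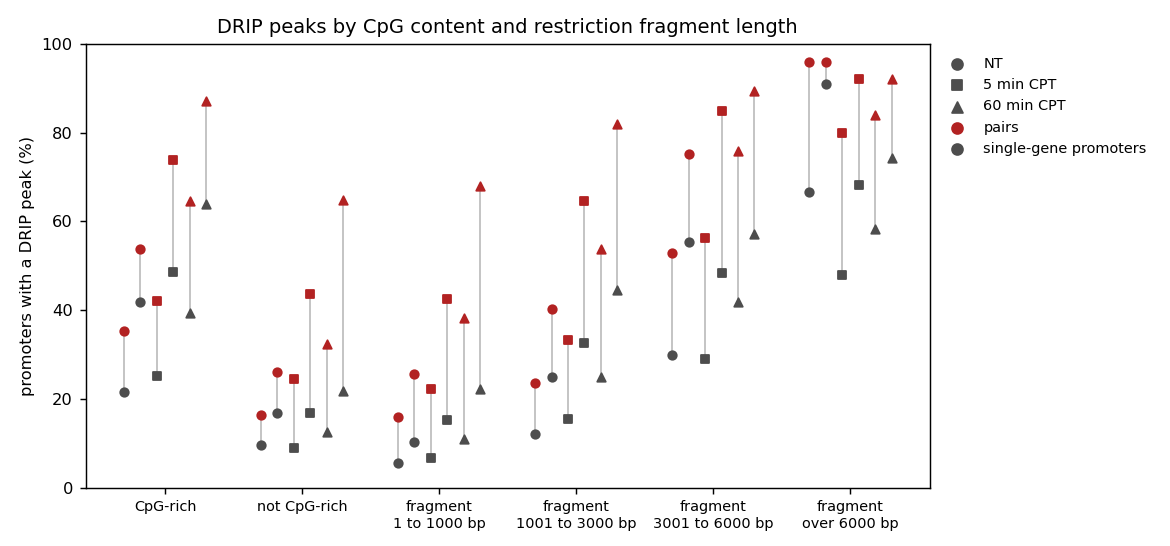
Share of promoters with a DRIP peak (vertical axis, percent) for pairs (red) and single-gene promoters (grey), split by CpG content and by length of the restriction fragment at the TSS. Each joined pair of points is 1 library, in the order NT, 5-min and 60-min CPT with replicate 1 first. The red point is higher in all 6 libraries of each class, and both colours are higher on longer fragments.

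The pattern of coverage around the pairs was broad and had its highest point near the promoter. In NT the most covered 100 bp bin lay 301 to 400 bp on the minus-gene side of the midpoint in both replicates, at 15.3% and 28.5% of the bases. At 5 min the highest bins held 13.6% and 37.2%, and at 60 min 23.7% and 47.3%. Coverage fell on both sides: in 5-min replicate 2 it was 36.9% within 100 bp of the midpoint and 13.6% and 13.2% at 4 to 5 kb into the minus and plus genes. The 60-min replicate 2 list was flatter, with 45.8% at the midpoint and 38.7% and 36.7% at 4 to 5 kb. Single-gene promoters had the gene on 1 side only, and in NT replicate 2 their coverage was 4.38% at 4 to 5 kb upstream and 8.15% at the same distance downstream.

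**Figure D3:**
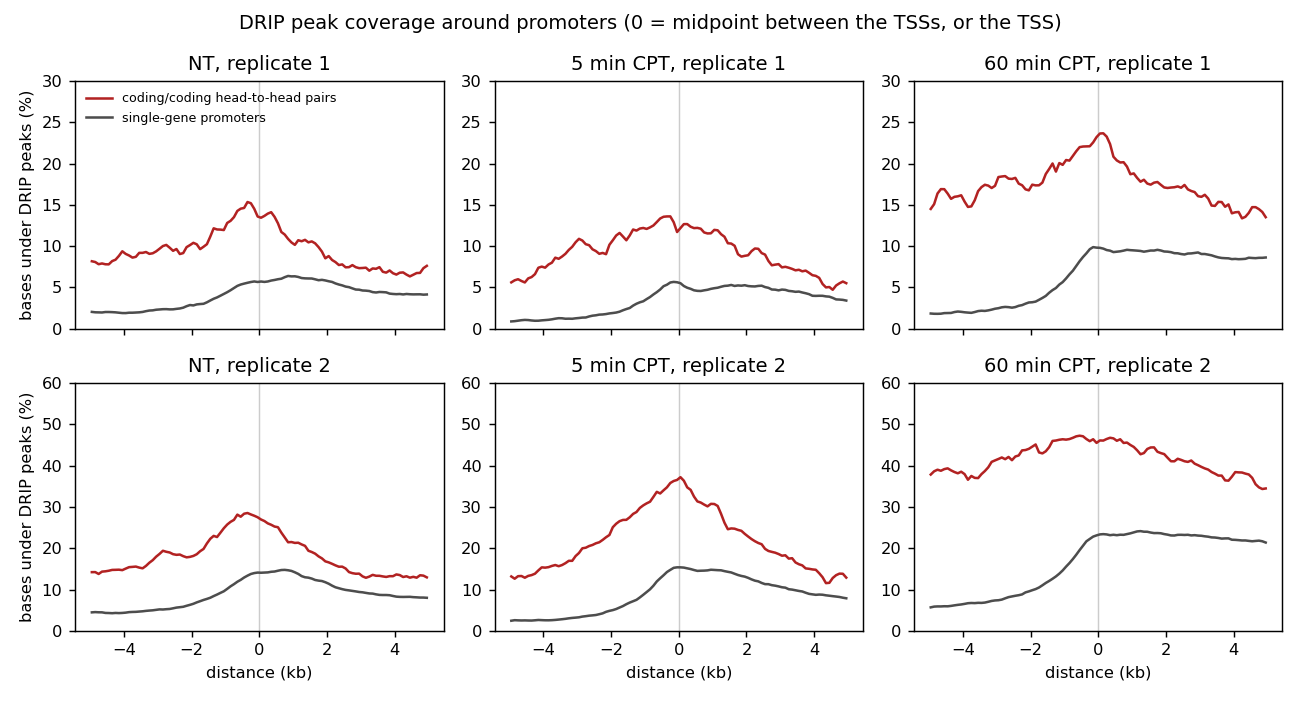
Share of bases under DRIP peaks (vertical axis, percent; the scale differs between the rows) in 100 bp bins by distance (kb) from the midpoint of the pairs, minus-strand gene to the left (red), or from the TSS of single-gene promoters, gene to the right (grey). The pairs are covered on both sides, with maxima of 13.6 to 23.7% in replicate 1 (top row) and 28.5 to 47.3% in replicate 2 (bottom row), while single-gene promoters step up near the TSS.

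In a pair with peaks the signal can sit on 1 gene, on both, or run over the whole promoter. A single peak that covered both TSSs was found in 100 of 257 pairs with a peak in NT replicate 1 (38.9%) and 206 of 393 in replicate 2 (52.4%). The counts were 88 of 315 (27.9%) and 268 of 553 (48.5%) at 5 min, and 171 of 474 (36.1%) and 344 of 676 (50.9%) at 60 min. The minus-gene side alone held peaks in 9.32 to 28.9% of the pairs with a peak and the plus-gene side alone in 10.8 to 24.1%. The minus-gene side was the more frequent in each library except 60-min replicate 2. Mean coverage was also higher on the minus-gene side in each library, which was not tested. In 5-min replicate 1 it was 12.1% against 11.1%, and in 60-min replicate 2 45.6% against 44.6%. No pair had a peak confined to the DNA between the TSSs. Of pairs with peaks on 1 side in both replicates, the side was the same in 34 of 43 in NT, 39 of 45 at 5 min and 33 of 40 at 60 min. The more covered side was that of the longer gene in 42.7 to 50.6% of the pairs whose sides differed, and that of the gene with the higher GC skew in 50.4 to 52.6%.

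**Figure D4:**
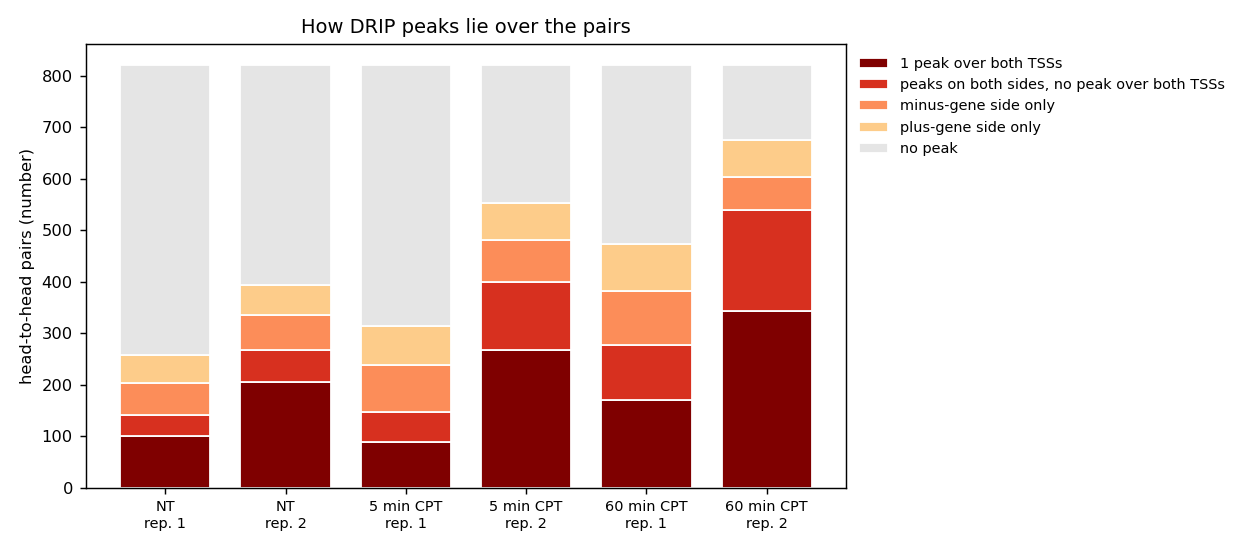
Number of the 821 head-to-head pairs (vertical axis) by where DRIP peaks lay in each library; colours from dark to light stand for 1 peak over both TSSs, peaks on both sides, the minus-gene side only, the plus-gene side only and no peak. Pairs with 1 peak over both TSSs number 100 and 206 in NT and 171 and 344 at 60 min of CPT.

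Cutting between the TSSs went with fewer shared peaks. In 744 pairs (90.6%) both TSSs lay on 1 restriction fragment, and there a peak over both TSSs was found in 29.9 to 54.8% of the pairs with a peak. In the 77 pairs with a cutting site between the TSSs it was found in 4.17 to 25%, and peaks on 1 side only made up 35.2 to 87.5%. A peak over both TSSs must also be as long as the distance it spans. Of the pairs with a peak, those with TSSs 1 to 50 bp apart had such a peak in 59.0% and 55.2% in NT, 26.4% and 62.5% at 5 min and 52.5% and 61.1% at 60 min. For TSSs 501 to 1000 bp apart the shares were 28.6% and 58.3%, 25% and 29.5%, and 12.5% and 32.1%, so they were lower in 5 of 6 libraries, by little in 5-min replicate 1, and higher in NT replicate 2. The share of pairs with any DRIP peak had no single direction: over the 135 pairs at 1 to 50 bp it was 28.9% and 49.6% in NT, 39.3% and 71.1% at 5 min and 59.3% and 83.7% at 60 min, and over the 66 pairs at 501 to 1000 bp it was 42.4% and 54.5%, 36.4% and 66.7%, and 60.6% and 80.3%.

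Against NT, more pairs carried a DRIP peak at both CPT times in each replicate, with the larger difference at 60 min. The share was 31.3% in NT and 57.7% at 60 min in replicate 1, and 47.9% and 82.3% in replicate 2, which is 26.4 and 34.5 points and 30.5 points between the means (39.6 ± 11.7% against 70.0 ± 17.4%, SD, n = 2). At 5 min the differences were 7.06 and 19.5 points, 13.3 between the means (52.9 ± 20.5% at 5 min). With 2 libraries against 2, the exact permutation test cannot go below p = 0.333. This exact permutation test gave p = 0.333 at 60 min (adjusted p = 0.5 over 3 tests) and p = 0.667 at 5 min (adjusted p = 0.667), so neither passes a threshold of 0.05 and the spread between replicates is wide. The 60-min difference of the pairs exceeded that of single-gene promoters by 16.0 points in replicate 1 and 21.01 in replicate 2, 18.5 on average (exact permutation p = 0.333, adjusted p = 0.5). The DRIP lists were also longer under CPT: replicate 1 held 30314 peaks in NT, 33852 at 5 min and 41668 at 60 min. Replicate 2 held 52967, 56543 and 72879. With all DRIP lists cut to 30314 peaks, the differences between the means were 11.1 points at 5 min and 23.5 at 60 min. The 60-min excess over single-gene promoters was then 15.7 points.

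RNase H signal moved with these differences in replicate 2 and not in replicate 1. When every DRIP peak that met an RNase H peak of its own treatment and replicate was removed, the 60-min difference was 26.2 points in replicate 1 and −3.78 points in replicate 2, and 11.2 between the means (exact permutation p = 0.667). The 5-min difference was then 5.97 and 0.365 points. The removal took 1.70% of the DRIP peaks in 60-min replicate 1 and 49.0% in 60-min replicate 2. The difference from single-gene promoters stayed above 0 in 6 of 6 libraries and fell to 20.2 points (exact permutation p = 0.03125). That in covered share fell to 6.87 points. In replicate 1 the difference in share from single-gene promoters was then 15.7 points in NT and 31.8 at 60 min. In replicate 2 it was 15.3 and 16.2 points.

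Pairs with a peak in both replicates of a treatment were counted as present, and those with one in neither as absent. A hybrid gain was absent in NT and present under CPT, and a hybrid loss was the reverse. In NT 246 pairs were present (30.0%, against 19.0% of all protein-coding promoters). At 5 min 305 were present (37.1%, against 20.0%) and at 60 min 468 (57.0%, against 32.1%). Gains at 5 min were called in 73 pairs (8.89%, against 4.12%) and losses in 10 (1.22%, against 1.64%). Gains at 60 min were called in 132 pairs (16.1%, against 7.81%) and losses in 2 (0.244%, against 0.940%). Of the 417 pairs absent in NT, 31.7% were gained at 60 min, and of 9283 such single-gene promoters 9.51% were. Of the 246 pairs present in NT, 0.813% were lost at 60 min, against 6.93% of 1889 single-gene promoters. Single pairs were not tested. Without the peaks that met RNase H peaks the gains were 47 pairs at 5 min and 75 at 60 min, and the losses 23 and 8. Over all protein-coding promoters these counts were not made without such peaks, so the shares above are no background for them.

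By kinetics, 160 pairs had a peak in all 6 DRIP lists (19.5%, against 10.6% of all protein-coding promoters) and 114 had none (13.9%, against 41.2%). Gains present at both CPT times were found in 57 pairs (6.94%, against 3.02%). Gains at 60 min only were found in 25 (3.05%, against 1.70%) and gains at 5 min only in 0 (against 0.109%). The largest class, 457 pairs (55.7%, against 42.2%), was mixed between replicates or times. Losses at both times were found in 2 pairs (0.244%, against 0.672%) and losses at 5 min only in 6 (0.731%, against 0.483%). Without the DRIP peaks that met RNase H peaks, 14 pairs kept a peak in all 6 lists, and 16 pairs were gained at both times, 27 at 60 min only and 5 at 5 min only. Losses were then 3 at both times and 6 at 5 min only. The kinetic classes of all protein-coding promoters were not counted after this removal, so these numbers have no background share. An RNase H peak was present in some list at 158 of the 160 pairs with constant peaks and at 55 of the 57 gained at both times. Within pairs that had a peak in NT and under CPT, the covered length moved by replicate. At 5 min in replicate 1, 67 pairs were covered more and 93 less than in NT, with a median of 1648 bp in NT and 1160 bp under CPT. In replicate 2, 171 were covered more and 142 less. At 60 min the numbers were 131 more and 80 less in replicate 1, and 261 more and 77 less in replicate 2.

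Gains of a side were mostly on 1 side of a pair. The other side could already have had a peak in NT, lack one throughout or differ between replicates. A pair with a gained side therefore need not be gained over its window, and 132 pairs were gained over the window at 60 min. Counting each 2 kb side by itself, a side was gained in 170 pairs at 60 min, on both sides in 48 and on 1 side in 122, of which 52 were on the minus-gene side and 70 on the plus-gene side. At 5 min a side was gained in 90 pairs, on both sides in 20 and on 1 side in 70, with 35 on each side. Without the peaks that met RNase H peaks, a side was gained in 58 pairs at 60 min (53 on 1 side) and in 46 at 5 min (43 on 1 side). Pairs with a peak in all 6 lists lay on longer fragments, with a median of 3067.5 bp, than pairs gained at both CPT times (2033 bp), gained at 60 min only (1637 bp) and without a peak (1463 bp). Their GC content was 63.9%, 58.9%, 61.9% and 59.6% in the same order.

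Among the pairs with peaks in all 6 lists, 3 were covered over their whole window in each: CHCHD10/MMP11, C11orf68/DRAP1 and RECQL4/LRRC14. C11orf68/DRAP1 lay on a restriction fragment of 7913 bp, and its peak was 7917 bp wide in 5 of the 6 lists and 8097 bp in 60-min replicate 2, so the edges of the peak were those of the fragment to within a few bases. CHCHD10/MMP11, a mitochondrial protein gene facing a matrix metalloproteinase gene, showed the same, with a fragment of 7695 bp and a peak of 7699 bp in 4 lists and of 7996 and 12025 bp in the 60-min ones. The peak over RECQL4/LRRC14, whose first gene is a RecQ helicase, was longer than its fragment of 9009 bp, at 14455 to 35301 bp. These 3 windows were also wholly covered by RNase H peaks in replicate 2 of both CPT times, with widths at 60 min of 8331 bp at CHCHD10/MMP11, 8377 bp at C11orf68/DRAP1 and 23400 bp at RECQL4/LRRC14, and no replicate 1 RNase H list had a peak there. SLBP/TACC3, for the protein that binds the stem-loop of histone mRNAs and a spindle factor, had 1 peak over both TSSs in all 6 lists, as did 34 pairs in all. XRCC3/ZFYVE21, which includes a factor of homologous recombination, was covered over 3558 and 3835 bp in NT, 3043 and 3558 bp at 5 min and 3558 bp in both replicates at 60 min. RNase H peaks of replicate 2 covered 2675 bp at 5 min and 3330 bp at 60 min at SLBP/TACC3. At XRCC3/ZFYVE21 they covered 2281 and 3558 bp. Neither of these pairs had a peak in another RNase H list.

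Pairs gained at both CPT times with the most coverage were RSRC2/KNTC1, H2BC11/H2AC11 and RIDA/POP1. KNTC1 encodes a kinetochore protein, and the window with RSRC2 was covered over 0 and 0 bp in NT, 2152 and 3779 bp at 5 min and 2075 and 4247 bp at 60 min. H2BC11/H2AC11, which encode replication-dependent histones H2B and H2A, went from 0 and 0 bp to 1946 and 2834 bp and then 1951 and 3127 bp. RIDA/POP1, an imine deaminase and a subunit of RNase P, went from 0 and 0 bp to 1933 and 2675 bp and then 2999 and 3751 bp. Each of the 3 had RNase H peaks in replicate 2 of both CPT times and in no replicate 1 list, with 1737 and 3204 bp covered at RSRC2/KNTC1, 2136 and 1765 bp at H2BC11/H2AC11, and 1912 and 3453 bp at RIDA/POP1 at 5 and 60 min.

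The pairs gained at 60 min only included AP3M1/ADK and UIMC1/ZNF346. AP3M1/ADK, an adaptor subunit and adenosine kinase, was covered over 953 and 1968 bp at 60 min and 0 bp in the other 4 lists, and a restriction site lay between its TSSs. UIMC1/ZNF346, which includes the ubiquitin-binding subunit of a BRCA1 complex, was covered over 846 and 1212 bp at 60 min and likewise 0 bp before. RNase H peaks covered AP3M1/ADK over 1041 bp in 5-min replicate 2, where no DRIP peak lay, and 1679 bp in 60-min replicate 2. At UIMC1/ZNF346 they covered 1406 bp in 60-min replicate 2, more than the DRIP peaks of that replicate. Neither pair had an RNase H peak in a replicate 1 list.

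Losses were few. ZDHHC19/SLC51A, a palmitoyltransferase and a bile acid transporter subunit, was covered over 1955 and 2190 bp in NT and 0 bp in all 4 CPT lists. At BST2/MVB12A the NT peaks reached only 72 bp into the window in each replicate, so this loss is of a peak that lay almost wholly outside it. Both had low CpG ratios for a pair, 0.380 and 0.252. GGN/SPRED3 was lost at 5 min only, with 1517 and 3237 bp in NT, 0 and 0 bp at 5 min and 3213 and 974 bp at 60 min. TMEM256-PLSCR3/NLGN2, a read-through gene facing a neuroligin gene, had 546 and 2231 bp, then 0 and 0 bp, then 2308 and 4324 bp. TNNC2/SNX21, a skeletal muscle troponin and a sorting nexin, had 497 and 2970 bp, then 0 and 0 bp, then 766 and 1940 bp. In NT replicate 2 RNase H peaks covered 1114 bp at ZDHHC19/SLC51A, 427 bp at GGN/SPRED3, 386 bp at TMEM256-PLSCR3/NLGN2 and 706 bp at TNNC2/SNX21. BST2/MVB12A had none, and 7.55% of all pairs had an RNase H peak in that list. In 5-min replicate 2, where no DRIP peak lay, RNase H peaks covered 603 bp at TMEM256-PLSCR3/NLGN2 and 309 bp at TNNC2/SNX21, and GGN/SPRED3 had none. In 60-min replicate 2 they covered 3525 bp at TMEM256-PLSCR3/NLGN2 and 1194 bp at TNNC2/SNX21. At GGN/SPRED3 they covered 2201 bp in that list, more than the DRIP peaks of that replicate.

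**Figure D5:**
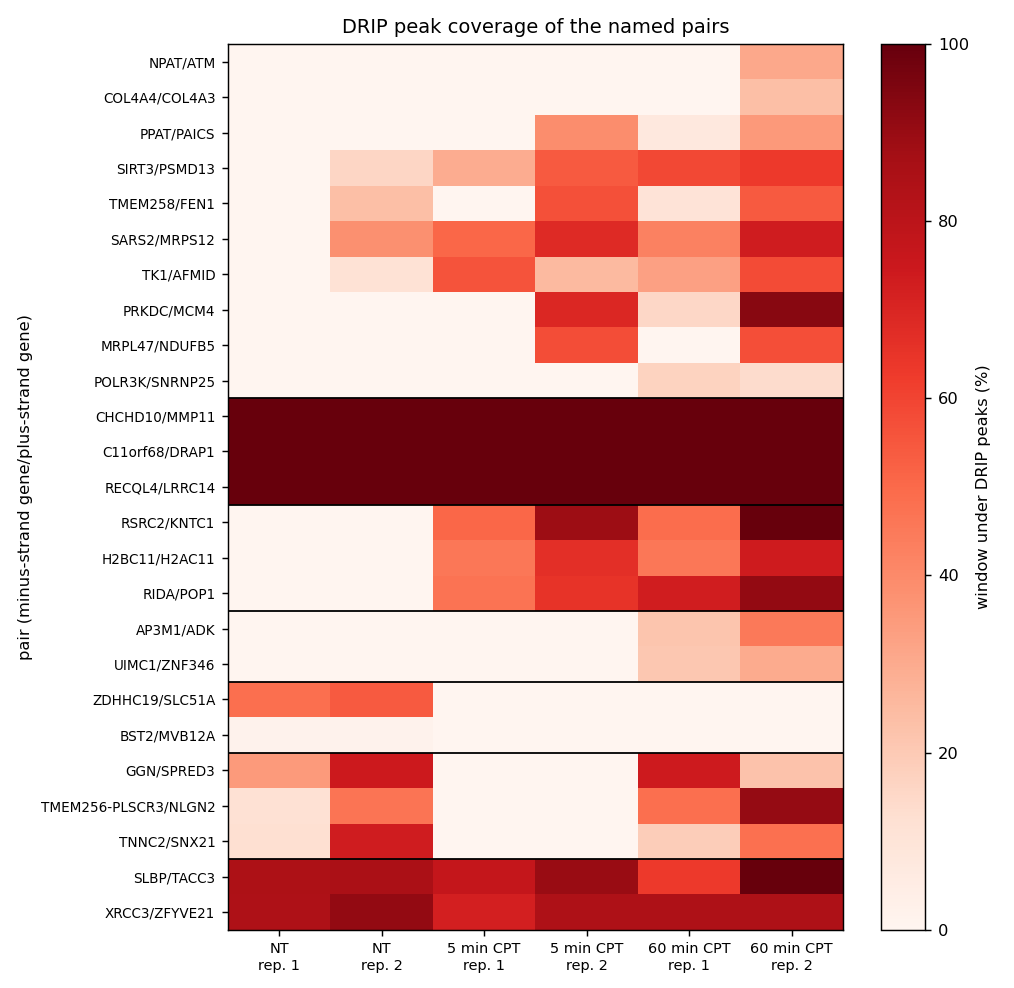
Share of the window under DRIP peaks (colour, 0 to 100%) for the named pairs (rows) in the 6 DRIP libraries (columns). Blocks from the top are well-known pairs, peaks in all 6 lists, gained at both CPT times, gained at 60 min only, lost at both CPT times, lost at 5 min only, and further pairs with 1 peak over both TSSs in all 6 lists. Gained pairs are at 0 in both NT columns, and the first 3 pairs with peaks in all 6 lists are at 100% throughout.

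Of 21 head-to-head pairs listed as well known, 11 met the rule. None of them had a DRIP peak in NT replicate 1, where 31.3% of all pairs did, and all 11 had one in 60-min replicate 2, where 82.3% of all pairs did. NPAT/ATM, an activator of histone gene transcription and the kinase of the double-strand break response, was covered over 1343 bp in that list and 0 bp in the other 5. COL4A4/COL4A3, for basement membrane collagen chains, was likewise covered in that list alone, over 979 bp. MRPL47/NDUFB5 was covered in replicate 2 only, over 2321 bp at 5 min and 2320 bp at 60 min. PRKDC/MCM4, the catalytic subunit of DNA-PK and a subunit of the replicative helicase, was at 0 bp in NT, 0 and 2775 bp at 5 min and 623 and 3728 bp at 60 min.

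PPAT/PAICS, 2 enzymes of purine synthesis, was at 0 bp in NT, 0 and 1612 bp at 5 min and 318 and 1463 bp at 60 min. POLR3K/SNRNP25 was covered over 710 and 592 bp at 60 min and 0 bp in the other lists. These 2 pairs and PRKDC/MCM4 were counted as gained at 60 min. SIRT3/PSMD13, a mitochondrial deacetylase and a proteasome subunit, was covered over 0 and 634 bp in NT, 1186 and 2182 bp at 5 min and 2375 and 2548 bp at 60 min. SARS2/MRPS12 was covered over 0 and 1600 bp, then 2123 and 2853 bp, then 1781 and 3070 bp. TK1/AFMID, thymidine kinase and kynurenine formamidase, was covered over 0 and 453 bp, then 2320 and 1042 bp, then 1362 and 2392 bp. TMEM258/FEN1, which includes the flap endonuclease of DNA replication, was covered over 0 and 971 bp, then 0 and 2330 bp, then 432 and 2219 bp. In these last 4 pairs NT replicate 2 already had a peak, and both replicates had more covered at 60 min than in NT. In 60-min replicate 2 RNase H peaks covered 1541 bp at SIRT3/PSMD13, 2042 bp at SARS2/MRPS12, 2752 bp at TK1/AFMID and 1189 bp at TMEM258/FEN1. They also covered 1186 bp at PRKDC/MCM4, 863 bp at PPAT/PAICS, 842 bp at MRPL47/NDUFB5, 290 bp at NPAT/ATM and 106 bp at POLR3K/SNRNP25. COL4A4/COL4A3 had none in any list. No RNase H list of replicate 1 had a peak at these pairs.

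By function, 45 pairs held a DNA repair or replication gene. Of these, 13 were present in NT, 20 at 5 min and 30 at 60 min, and 10 were gained at 60 min, where 132 of all 821 pairs were. Without the peaks that met RNase H peaks, 11, 12 and 11 of the 45 were present and 5 were gained at 60 min, so the higher counts under CPT were not seen in what was left. A pair counted as present needs a peak in both replicates. In replicate 2 the removal took 10.8% of the DRIP peaks in NT, 33.0% at 5 min and 49.0% at 60 min, so these counts depend on that replicate. Pairs with a cytosolic ribosomal protein gene numbered 12, and 9 of these had a peak in all 6 lists, against 160 of all 821. The 11 pairs of replication-dependent histone genes, in which both genes are histones, had none in all 6 lists, with 2 present in NT, 8 at 5 min and 5 at 60 min. Over all pairs the order was 246, 305 and 468, so the histone pairs had their highest count at 5 min, which was not tested. Without the peaks that met RNase H peaks, 1 histone pair was present in each treatment, and 2 of the 12 ribosomal protein pairs had a peak in all 6 lists. Over all pairs 208 were then present in NT, 145 at 5 min and 166 at 60 min, so this count from both replicates was highest in NT. By replicate, the share of all pairs with a remaining peak differed from NT at 60 min by 26.2 points in replicate 1 and −3.78 in replicate 2. Splicing factor genes were in 21 pairs (8 present in NT, 14 at 5 min, 17 at 60 min), mitochondrial ribosomal protein genes in 16 (5, 9 and 11) and respiratory chain genes in 19 (8, 14 and 13). Chaperone genes were in 18 pairs (7, 12 and 12) and C2H2 zinc finger genes in 33 (12, 10 and 21). Solute carrier genes were in 12 (2, 2 and 4), with 1 lost at both CPT times. Translation initiation factor genes were in 8 pairs (4, 2 and 4), proteasome genes in 6 (2, 4 and 4) and aminoacyl-tRNA synthetase genes in 3 (0, 2 and 3). Without the peaks that met RNase H peaks, splicing factor pairs present were 7, 7 and 6 in the same order. Mitochondrial ribosomal protein pairs were then 5, 5 and 2, respiratory chain pairs 8, 6 and 2 and chaperone pairs 6, 4 and 3. C2H2 zinc finger pairs were 11, 3 and 9, solute carrier pairs 2, 1 and 1 and translation initiation factor pairs 4, 0 and 1. Proteasome pairs were 1, 1 and 2 and aminoacyl-tRNA synthetase pairs 0, 2 and 1.

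Fewer pairs had an RNase H peak than a DRIP peak in each treatment and replicate, by an amount that differed between replicates. RNase H peaks were found at 0 and 62 pairs in NT, 15 and 387 at 5 min, and 10 and 587 at 60 min. In NT replicate 1 the 0 of 821 pairs has a Wilson 95% upper limit of 0.466%. The share with a DRIP peak exceeded the share with an RNase H peak by 32.6 points on average (SD 16.0, n = 6, range 10.8 to 56.5, 6 of 6, exact permutation p = 0.03125, adjusted p = 0.0417). Of all 20098 protein-coding promoters, 4133 had a DRIP peak and 19 an RNase H peak in NT replicate 1. In 60-min replicate 2 the counts were 10244 and 8377, and the direction was the same in every library. Each RNase H list was also shorter than its DRIP list, from 473 against 30314 peaks to 67188 against 72879. How much of the difference comes from list length was not tested. Of the pairs with a DRIP peak, 1.48% also had an RNase H peak in 60-min replicate 1 and 84.2% in 60-min replicate 2. Where both were present in 60-min replicate 2, the median covered length was 2575 bp in the DRIP list and 1349 bp in the RNase H list. RNase H peaks were present at 604 of the 821 pairs in some list, and at 24 in a replicate 1 list.

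The RNase H peaks were also more frequent at pairs than at single-gene promoters in 5 of 6 libraries, by 11.3 points on average (SD 16.5, range −0.111 to 38.1). The exact permutation test gave p = 0.0938 (adjusted p = 0.0938). This average comes from replicate 2 under CPT, where the differences were 26.0 points at 5 min and 38.1 at 60 min, and the other 4 libraries lay between −0.111 and 3.03 points. With replicate 1 alone it was 0.272 points. Why these 2 lists hold so many peaks was not tested.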

How the data were processed

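DRIP-seq was done on HCT116 cells in 2 replicates of each treatment. The authors ran MACS2 per library, with the matching input as control, on hg19, and their lists hold every peak's interval, an integer score, a fold enrichment and −log10 p and −log10 q values as deposited (lowest −log10 q 1.30 to 1.31). Replicates were not pooled. The yeast spike-in is not part of the lists, and read counts were not used here. Input samples were not analysed.

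Gene models were GENCODE release 44 lifted to GRCh37, chromosomes 1 to 22 and X. A peak counted with at least 1 bp of overlap. The number of promoters met and the bases covered were computed with Python 3.11.15, NumPy 2.4.6 and pysam 0.24.0, and the code was tested on simulated data. Classes were compared over libraries by exact permutation tests, two-sided. Since the labels do not tie equal replicate numbers together, treatments were compared without pairing. Pairs named were the well-known ones, the 3 most covered of each kinetic class, and the 3 with the longest peak over both TSSs in the most lists; 2 of these pairs are not reported here. The pairs, gene lists and classes were chosen with earlier results of these data known.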

Additional observations from a re-analysis of the deposited data

How the results depend on the processing

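The 3 differences that passed the threshold over 6 libraries (pairs against single-gene promoters in share and in covered bases, and DRIP against RNase H) kept their direction and stayed at the smallest possible p under every alternative list, window, TSS and reference tried: 14.0 to 31.0 points, 6.87 to 15.4 points and 29.2 to 46.8 points. The last value comes from DRIP lists cut to 30314 peaks and RNase H lists cut to 473, so it follows from list length. The uncut RNase H lists were also each shorter than their DRIP lists, and DRIP and RNase H were not compared at the same length. Leaving out 1 library or 1 replicate gave 22.9 to 30.8, 8.62 to 18.01 and 23.8 to 41.5 points, where the exact permutation test over 5 libraries cannot go below p = 0.0625. The RNase H difference between classes ranged from 0.623 (lists cut to 473 peaks) to 12.8 points, and from 0.272 to 22.4 points when libraries were left out. The mean CPT changes in share stayed above 0: 3.17 to 16.1 points at 5 min, 11.2 to 33.4 at 60 min and 8.47 to 20.9 beyond single-gene promoters, with the lowest value of each after removing DRIP peaks that met RNase H peaks. By replicate they were 7.06 to 19.5, 26.4 to 34.5 and 16.0 to 21.01 points with all peaks, and after that removal the 60-min change was 26.2 points in replicate 1 and −3.78 in replicate 2.

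With the replicate number as a block the CPT changes were the same 13.3, 30.5 and 18.5 points, with an exact permutation p = 0.5, the smallest that 2 differences allow. The labels do not say what a number shares. Over the 821 pairs, the replicate differences in covered bases correlated between treatments at r = 0.366 (NT and 5 min), 0.227 (NT and 60 min) and 0.449 (5 and 60 min), values that also reflect the longer lists of replicate 2.

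Counts of single pairs were less stable. Gains at 5 min were 46 with 500 bp beyond each TSS and 47 without the peaks that met RNase H peaks. The latter also left 75 gains at 60 min, 23 losses at 5 min and 8 at 60 min. With lists of equal size, gains were 76 at 5 min and 106 at 60 min. Losses at 60 min were 1 at −log10 q of at least 3, 5 with lists of equal size, 5 with 500 bp beyond each TSS and 4 where 500 bp had to be covered. With 1 replicate alone, where a call needs 1 list each, gains were 144 to 202 at 5 min and 245 to 300 at 60 min, and losses 42 to 86 and 17 to 28. The depth of the libraries is unknown from peak lists, and a missing peak is not an absent hybrid. Counts by kinetic class, side and gene group without the peaks that met RNase H peaks were added after seeing the data.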
